A study of Rattus norvegicus with 10 samples.

Results

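Base excision repair is the pathway that removes small chemical lesions from DNA, such as oxidised, deaminated or lost bases. A DNA glycosylase cuts the damaged base out, an apurinic/apyrimidinic endonuclease nicks the strand at the gap, and a polymerase, a scaffold and a ligase fill and seal it, with a poly(ADP-ribose) polymerase sensing the nick. The same pathway acts in the nucleus and in mitochondria, which are abundant in heart muscle. The 10 genes described here were taken by symbol from a deposited expression table of 18025 rat genes. They comprise 6 glycosylases (Ogg1, Mutyh, Ung, Neil1, Neil2 and Neil3), the endonuclease Apex1, the gap-filling polymerase Polb, the scaffold Xrcc1 and the nick sensor Parp1.

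Messenger RNA was sequenced from 10 libraries of fetal hearts of wild-type Sprague-Dawley rats at embryonic day 19.5. In the control (CON) group, 5 libraries came from pregnancies of dams given citric acid buffer alone. In the hyperglycemia (HG) group, 5 libraries came from pregnancies of dams made diabetic with streptozotocin (STZ), a compound toxic to insulin-producing cells, given by intraperitoneal injection on each of 3 days. Dams were 3 months old and were mated with males of the same strain. The study's introduction places the STZ before pregnancy, while its methods place it after mating. The sample titles and the study's results name hearts, while a figure legend places the comparison in isolated fetal cardiomyocytes. Litter, dam and fetal sex of each library were not given, so p-values measure the spread between these libraries only, and direct effects of STZ and those of high glucose cannot be told apart.

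Values are FPKM, fragments per kilobase of transcript scaled to the size of the library, so they are per length and can be set beside each other between genes. Means are given ± SD with n = 5 per group. A fold change is the difference of group means of log2(FPKM + 0.1), which understates changes of the genes with the lowest values, and the test is limma's moderated test over 14542 genes with Benjamini-Hochberg adjustment. A gene was called where the adjusted p was under 0.05. Reads on genes numbered 17639895 to 18240006 in the CON group and 16672876 to 19109844 in the HG group, per library, a difference that did not pass an exact two-sided permutation test (p = 0.77). Hemoglobin genes held 3.23% ± 0.862 of the summed FPKM in CON and 2.23% ± 0.264 in HG (exact two-sided permutation p = 0.0317, the smallest possible being 0.00794). That p was 0.0635 without any single one of CON 1, CON 2, CON 4, HG 1, HG 4 or HG 5.

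All 10 genes were above 0 in every library and passed the filter on low values. In HG, 4 of them rose (Apex1, Xrcc1, Ogg1 and Neil3), 1 fell (Neil2), and Mutyh, Neil1, Parp1, Polb and Ung did not pass the test. The background was wide, since 28.4% of all genes tested were called higher in HG and 11.8% lower. With 10 genes, these counts lie near the background. The median log2 fold change was 0.20 over the 10 genes and 0.093 over all genes tested. None of the 10 passed the study's stricter rule, which also asks for an absolute log2 fold change above 1 and which 1.94% of all genes passed. Every HG library lay above every CON library for 2 genes, Apex1 and Xrcc1, as it did for 19.3% of all genes. No member had every HG library below every CON library, an arrangement found in 8.12% of all genes.

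**Figure D1:**
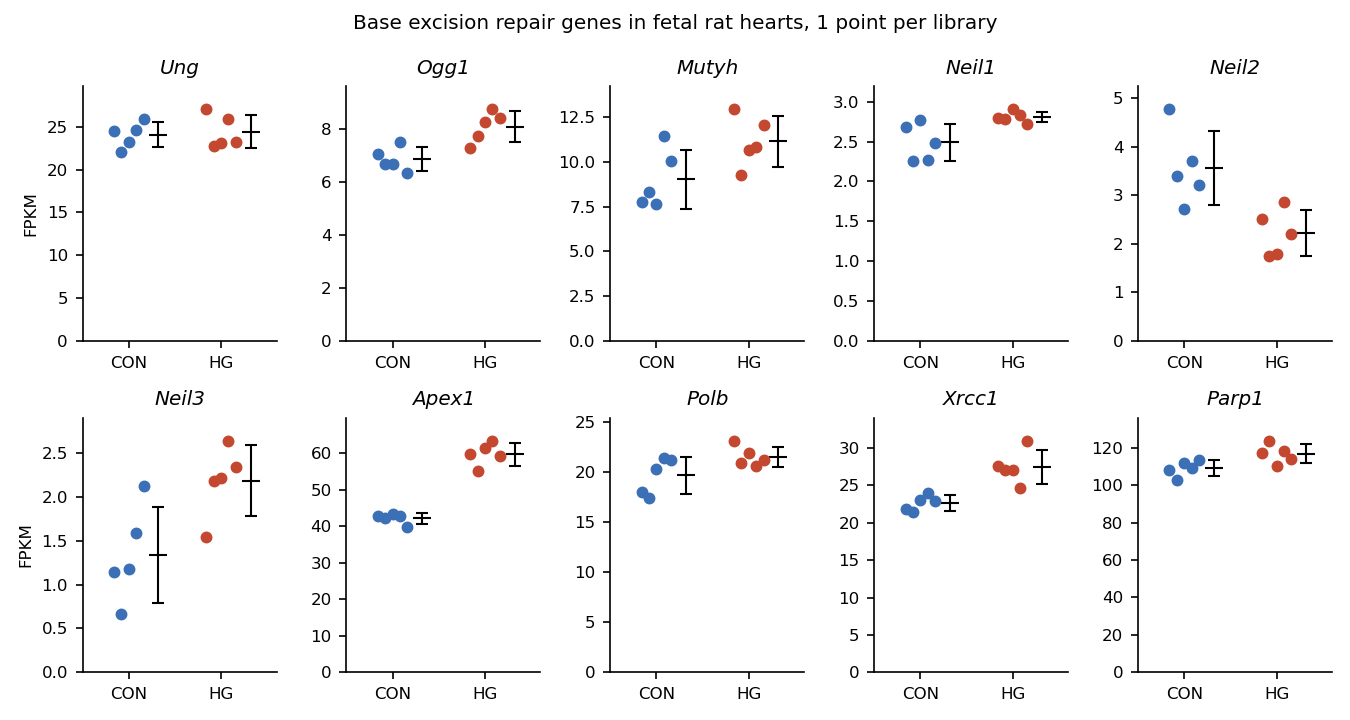
FPKM of the 10 genes in each library, with CON in blue and HG in red; each point is a library, and the bar beside the points is the mean ± SD of 5 libraries. Apex1 and Xrcc1 are the panels in which the groups do not overlap, and Neil2 is the panel in which the HG mean is the lower, at 2.22 against 3.56.

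Among the 10 genes, levels in CON spanned a wide range. Parp1 led with 109 ± 4.12 FPKM, at the 96.6th percentile of mean FPKM over all 18025 genes listed, followed by Apex1 at 42.1 ± 1.44. Ung, Xrcc1 and Polb came next at 24.1, 22.6 and 19.7 FPKM, and neighbours in that order overlapped between libraries. Mutyh (9.03) and Ogg1 (6.87) lay below them without overlap with the next gene. The Neil glycosylases were lowest, with Neil2 at 3.56, Neil1 at 2.49 and Neil3 at 1.34, and only Neil2 and Neil1 overlapped. In HG the places of Xrcc1 and Ung were exchanged within overlapping ranges, and the Neil genes stood in the order Neil1 (2.81), Neil2 (2.22) and Neil3 (2.18), each overlapping with the next.

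Apex1 (NCBI Gene 79116), the main endonuclease at abasic sites and also known as the redox factor Ref-1, showed the clearest change of the 10 genes. In CON 1 to 5 it stood at 42.8, 42.1, 43.3, 42.8 and 39.7 FPKM. In HG 1 to 5 it stood at 59.6, 55.0, 61.3, 63.4 and 59.2 FPKM. The lowest HG library was well above the highest CON library. The means were 42.1 ± 1.44 and 59.7 ± 3.12, a ratio of 1.42, with a log2 fold change of 0.50 (SE 0.0423, 95% confidence interval 0.41 to 0.59, adjusted p = 5.48e-06). Each library held 947 to 1537 Apex1 reads, and the spread between CON libraries (3.42% of the mean) was close to the 3.13% that counting error alone gives, while in HG the spread was 5.23% against 2.64%.

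The 250 bases before an annotated Apex1 start are printed because this gene carried the clearest change, beside those of Ung, the glycosylase that did not move. They come from RefSeq on the GRCr8 build, which is not the build of the expression table. Entries matched 7 of the 10 genes; Neil2, Neil3 and Polb had none. The Apex1 stretch is chr15:26617976-26618225 on the plus strand and the Ung stretch is chr12:48154046-48154295 on the minus strand. Both genes also have an annotated start further upstream, so a part of each stretch lies inside the longest gene model. Capitals mark, on either strand, the E-box CACGTG, the CCAAT box CCAAT and the GC box GGGCGG, with overlapping matches merged.
Apex1: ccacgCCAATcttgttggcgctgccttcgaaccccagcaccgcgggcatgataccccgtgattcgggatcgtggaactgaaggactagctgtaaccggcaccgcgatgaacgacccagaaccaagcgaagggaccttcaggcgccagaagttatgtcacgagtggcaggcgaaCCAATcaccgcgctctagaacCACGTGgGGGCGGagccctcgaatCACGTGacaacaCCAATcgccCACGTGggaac
Ung: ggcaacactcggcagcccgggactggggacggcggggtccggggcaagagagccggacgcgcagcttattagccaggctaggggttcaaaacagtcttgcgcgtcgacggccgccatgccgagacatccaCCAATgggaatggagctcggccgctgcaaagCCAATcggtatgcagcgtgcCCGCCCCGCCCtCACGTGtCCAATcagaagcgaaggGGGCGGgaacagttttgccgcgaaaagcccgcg

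The Apex1 stretch held 3 E-boxes, beginning 56, 32 and 11 bases before the start, and 3 CCAAT boxes. At least 1 E-box was present in 5.59% of 33469 rat promoters of this length, and at least 3 in 0.0508% of them. Ung held 1 E-box and 3 CCAAT boxes, and 2.52% of promoters hold at least 3 CCAAT boxes. No other matched gene of the pathway held an E-box. CCAAT was found in 3 of the 7 (34.0% of all promoters), GGGCGG in 5 of the 7 (30.5%) and the antioxidant response element TGACNNNGC in 1 of the 7 (10.1%). The E2F motifs TTTCGCGC and TTTGGCGC (0.636% of all promoters), TATAAA (12.9%) and the NRF1 core CGCATGCG (1.47%) matched none of the 7. No other spelling of the E2F motif was searched. These are matches of letters in a window, not sites shown to be used.

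Xrcc1 (NCBI Gene 84495), the scaffold that holds the polymerase and DNA ligase 3 at the nick, also rose. The CON libraries gave 21.8, 21.4, 23.0, 24.0 and 22.9 FPKM in order of number. The HG libraries gave 27.5, 27.0, 27.1, 24.6 and 30.9 FPKM. The groups did not overlap, but HG 4 lay just above the highest CON library. The mean went from 22.6 ± 1.04 to 27.4 ± 2.26, a ratio of 1.21 and a log2 fold change of 0.28 (SE 0.0566, 95% confidence interval 0.15 to 0.40, adjusted p = 0.00228).

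Parp1 (NCBI Gene 25591), which binds nicked DNA and builds poly(ADP-ribose) there, was the most abundant of the 10. The CON values were 108, 103, 112, 109 and 113 FPKM. The HG values were 117, 124, 110.3, 118 and 114 FPKM. HG 3 lay inside the CON range and the other HG libraries above it. The log2 fold change was 0.10 (SE 0.0391, 95% confidence interval 0.012 to 0.18, adjusted p = 0.0657), and without HG 3 it was 0.12 with an adjusted p of 0.0403. Leaving out HG 3 gave the only Parp1 call in 20 alternatives. With median-of-ratios factors the adjusted p was 0.912. Between 6633 and 8040 Parp1 reads per library stood behind these values, so that counting error was 1.20% of the mean in CON.

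Polb (NCBI Gene 29240), DNA polymerase beta, which fills the gap of a single base, did not pass the test. Its CON libraries ran 18.1, 17.5, 20.3, 21.5 and 21.2 FPKM. Its HG libraries ran 23.2, 21.0, 21.9, 20.6 and 21.2 FPKM. The ranges overlapped, with CON 1 and CON 2 the low libraries of the CON group. The log2 fold change was 0.13 with a 95% confidence interval from -0.0030 to 0.27 (adjusted p = 0.11). Over the 4 genes that act after the glycosylases, the summed FPKM was 184 to 199 in CON and 221 to 228 in HG. Of these, Apex1 and Xrcc1 were called and Polb and Parp1 were not. The 6 glycosylases summed to 43.4 to 51.2 FPKM in CON and 46.5 to 54.1 in HG, which overlap. Both sums were made with FPKM as deposited only.

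Ogg1 (NCBI Gene 81528) removes 8-oxoguanine, the commonest oxidised base, and rose modestly. In CON it was at 7.08, 6.71, 6.68, 7.54 and 6.35 FPKM. In HG it was at 7.30, 7.73, 8.27, 8.77 and 8.44 FPKM. HG 1 fell within the CON range and the other HG libraries lay above it. The mean rose from 6.87 ± 0.454 to 8.10 ± 0.586 (log2 fold change 0.23, SE 0.065, 95% confidence interval 0.093 to 0.38, adjusted p = 0.0127). With the libraries scaled by median-of-ratios factors or by quantile normalization the adjusted p was 0.102 and 0.11. Camk1, a kinase gene that overlaps Ogg1 on the opposite strand in RefSeq, also rose, from 24.2 ± 0.763 to 28.4 ± 1.70 FPKM (a log2 difference of 0.23, adjusted p = 0.00184). The kit was a stranded one, but the strand setting of the counting was not given in the sources used here, so reads of the 2 genes may not be separated.

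Mutyh (NCBI Gene 170841), which removes adenine paired with 8-oxoguanine, was at 7.74, 8.31, 7.66, 11.4 and 10.03 FPKM in CON. In HG it was at 12.9, 9.27, 10.7, 10.8 and 12.1 FPKM. CON 4 lay above 3 of the HG libraries, and CON 5 above HG 2. The log2 fold change was 0.31 (SE 0.118, 95% confidence interval 0.053 to 0.57) and the adjusted p of 0.0538 missed the threshold. Leaving out 1 library at a time gave adjusted p from 0.0116 to 0.125, under the threshold without CON 4, CON 5 or HG 2. With median-of-ratios factors and quantile normalization it was 0.169 and 0.162. Its opposite-strand neighbour Toe1 rose from 10.2 ± 0.639 to 11.8 ± 0.364 FPKM (a log2 difference of 0.21, adjusted p = 0.00744), and the same doubt on strand applies.

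Ung (NCBI Gene 304577), the uracil glycosylase, has a nuclear and a mitochondrial form made from different starts, which the gene-level value sums. It gave 24.5, 22.1, 23.2, 24.6 and 25.9 FPKM in CON. It gave 27.0, 22.8, 23.1, 25.9 and 23.2 FPKM in HG. The groups lay on top of each other. The log2 fold change was 0.017 with a 95% confidence interval from -0.11 to 0.15 (adjusted p = 0.843), so that at 868 to 1160 reads per library the interval still holds small changes in either direction.

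The 3 Neil genes code for glycosylases of oxidised bases that also act on bubble or single-stranded DNA, and they moved in different ways. Neil1 (NCBI Gene 367090) was at 2.68, 2.26, 2.77, 2.26 and 2.48 FPKM in CON. It was at 2.80, 2.78, 2.91, 2.83 and 2.72 FPKM in HG, where the libraries stood close together. HG 5 lay below the highest CON library and the other HG libraries above it. The log2 fold change of 0.17 (SE 0.0772, 95% confidence interval 0.0048 to 0.34, adjusted p = 0.0949) did not pass the test.

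Neil2 (NCBI Gene 305957) was the single member that fell. CON libraries held 4.77, 3.39, 2.72, 3.71 and 3.20 FPKM. HG libraries held 2.51, 1.74, 1.78, 2.85 and 2.20 FPKM. Only HG 4 reached into the CON range, above CON 3. The mean went from 3.56 ± 0.765 to 2.22 ± 0.476, a ratio of 0.623, with a log2 fold change of -0.66 (SE 0.161, 95% confidence interval -1.01 to -0.31, adjusted p = 0.00632). These values rest on 54 to 151 reads per library. The spread between CON libraries was 21.5% of the mean, against 9.45% from counting alone.

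Neil3 (NCBI Gene 290729), known mainly from dividing and progenitor cells, was the lowest of the 10 in CON. It stood at 1.15, 0.666, 1.18, 1.59 and 2.12 FPKM in CON. It stood at 1.54, 2.18, 2.22, 2.64 and 2.34 FPKM in HG. CON 4 and CON 5 lay at or above HG 1, and the other HG libraries were the highest of all. The mean went from 1.34 ± 0.544 to 2.18 ± 0.403, a ratio of 1.63 and a log2 fold change of 0.73 (SE 0.24, 95% confidence interval 0.21 to 1.25, adjusted p = 0.0283). The call rests on 24 to 92 reads per library and was lost without any single one of CON 1, CON 3, HG 2, HG 3, HG 4 or HG 5 (adjusted p between 0.0507 and 0.0634), and with either scaling named for Ogg1 (0.0549 and 0.0568).

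Ratios between genes within a library do not depend on a scaling factor of the library. Those given here were chosen after the values were seen and are a description with no test. Neil3 was at 0.391 ± 0.185 of Neil2 in CON and at 1.02 ± 0.265 in HG. CON 5, at 0.661, was above HG 1, at 0.611, and the other libraries did not overlap. Apex1 was at 0.350 to 0.410 of Parp1 in CON and at 0.444 to 0.556 in HG. Against the summed 6 glycosylases, Apex1 was at 0.894 ± 0.0823 in CON and 1.18 ± 0.0545 in HG. For both Apex1 ratios every HG library was above every CON library. The ratio of Xrcc1 to its partner Polb overlapped, at 1.08 to 1.22 in CON and 1.19 to 1.46 in HG.

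**Figure D2:**
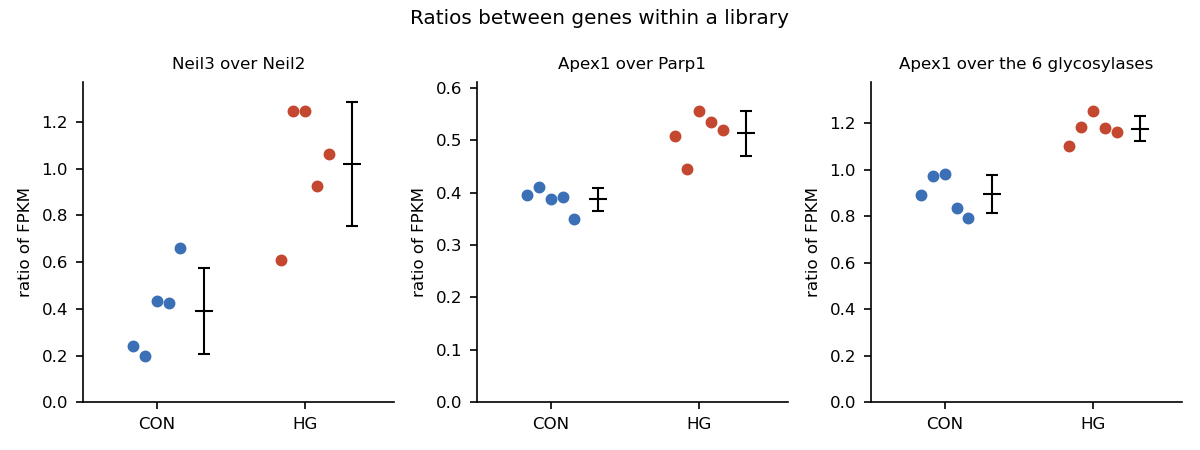
Ratios of FPKM within each library for Neil3 over Neil2, Apex1 over Parp1 and Apex1 over the summed 6 glycosylases; each point is a library, the bar is the mean ± SD of 5 libraries, and axes start at 0. HG points lie above CON points except for Neil3 over Neil2 in HG 1, at 0.611 against 0.661 in CON 5.

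The rise of Apex1 and Xrcc1 and the fall of Neil2 passed the test under each of 20 alternatives. Of all calls, 70.7% were higher in HG with FPKM as deposited, against 47.4% with median-of-ratios factors and 53.0% with quantile normalization, and the median log2 fold change of all genes went from 0.093 to 0.0069 and 0.020. With median-of-ratios factors the log2 fold change was 0.41 for Apex1, 0.19 for Xrcc1 and -0.75 for Neil2, with Ung at -0.072 and Parp1 at 0.0077. In that scaling 2 of the 10 genes were called higher, against 15.7% of all genes, and 1 lower, against 17.5%.

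**Figure D3:**
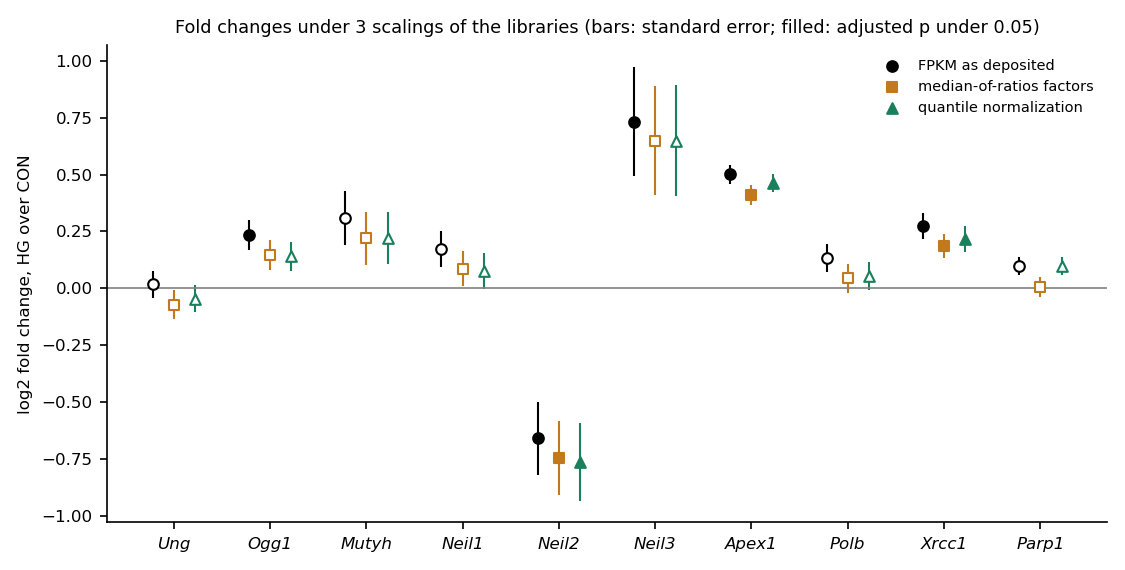
Log2 fold change of each of the 10 genes, HG against CON, with FPKM as deposited and after median-of-ratios and quantile scaling; filled points have an adjusted p under 0.05. Apex1, Xrcc1 and Neil2 stay filled in all 3 scalings, while Ogg1 and Neil3 are filled with FPKM as deposited only.

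Around these 10 genes, 33 further genes of the pathway were examined in 4 lists by role, and all passed the filter. In HG 24 of them (72.7%) were called higher and 1 lower, with a median log2 fold change of 0.24. The background for higher calls is the 28.4% given above. Of the 24, 14 are long-patch factors shared with DNA replication. The lists were chosen with earlier results of these data known, so the counts are a description. With median-of-ratios factors 11 of the 33 were called higher, against 15.7% of all genes. With quantile normalization 14 were called higher, against 18.0% of all genes, and 1 was lower in each scaling. For 17 of the 33 every HG library was above every CON library, as it was for 19.3% of all genes.

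Of 5 other glycosylases, 2 rose. Of all genes, 28.4% were called higher, against 15.7% with median-of-ratios factors and 18.0% with quantile normalization. Tdg (NCBI Gene 114521), which removes thymine and oxidised methylcytosine paired with guanine, was at 28.8 to 36.4 FPKM in CON and 44.1 to 49.6 in HG. Its groups did not overlap, and its mean went from 30.8 ± 3.17 to 47.3 ± 2.18 (log2 fold change 0.62, SE 0.0623, adjusted p = 1.77e-05). Mpg, the alkyladenine glycosylase, rose from 1.75 ± 0.209 to 2.25 ± 0.333 FPKM (a log2 difference of 0.34, adjusted p = 0.0344). The count was 1 of 5 with either other scaling, with no filter, with replicate numbers as a block, and without any single library other than CON 5 or HG 5. Nthl1, Smug1 and Mbd4 did not pass the test.

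Of 10 genes that clean strand ends and complete the short repair patch, 7 rose, with log2 fold changes from 0.18 to 0.39, and 4 with either other scaling. Of all genes, 28.4% were called higher, against 15.7% and 18.0% with the other scalings. The 7 included the end-cleaning enzymes Tdp1 and Aptx, the second nick sensor Parp2, the poly(ADP-ribose) hydrolase Parg, the Xrcc1 partner Lig3 (10.7 ± 0.474 to 12.2 ± 0.368) and Hmgb1. Hmgb1-like copies are listed as genes of their own in the table, so how its reads were shared is uncertain. Apex2, the minor endonuclease, was at 4.85 ± 0.665 FPKM in CON and 4.90 ± 0.465 in HG, unlike Apex1. Aplf and Poll did not pass the test either.

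Of 16 long-patch factors, which are shared with DNA replication, 14 rose, where 28.4% of all genes were called higher. With median-of-ratios factors 5 rose (15.7% of all genes) and with quantile normalization 8 (18.0%). The clearest was Rfc5 (NCBI Gene 304528), a subunit of the loader of the sliding clamp Pcna. It was at 16.8 to 18.4 FPKM in CON and 26.2 to 28.0 in HG, without overlap, and its mean went from 17.7 ± 0.696 to 27.0 ± 0.925 (log2 fold change 0.61, SE 0.0406, adjusted p = 1.2e-06). The sliding clamp Pcna itself rose from 138 ± 5.98 to 156 ± 10.3 FPKM and the flap nuclease Fen1 from 19.8 ± 0.563 to 23.4 ± 1.69. Pole4, a small subunit of polymerase epsilon, was lower in HG, at 19.2 ± 1.33 FPKM against 22.5 ± 0.809 (a log2 difference of -0.23, adjusted p = 0.00356). The genes other than Tdg and Rfc5 in these lists are named after their values were seen. Of the 2 genes that clean the nucleotide pool, Dut rose (46.1 ± 1.67 to 52.8 ± 2.62 FPKM), while Nudt1, which removes oxidised dGTP, was at 7.11 ± 0.634 in CON and 7.88 ± 0.633 in HG (adjusted p = 0.133).

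**Figure D4:**
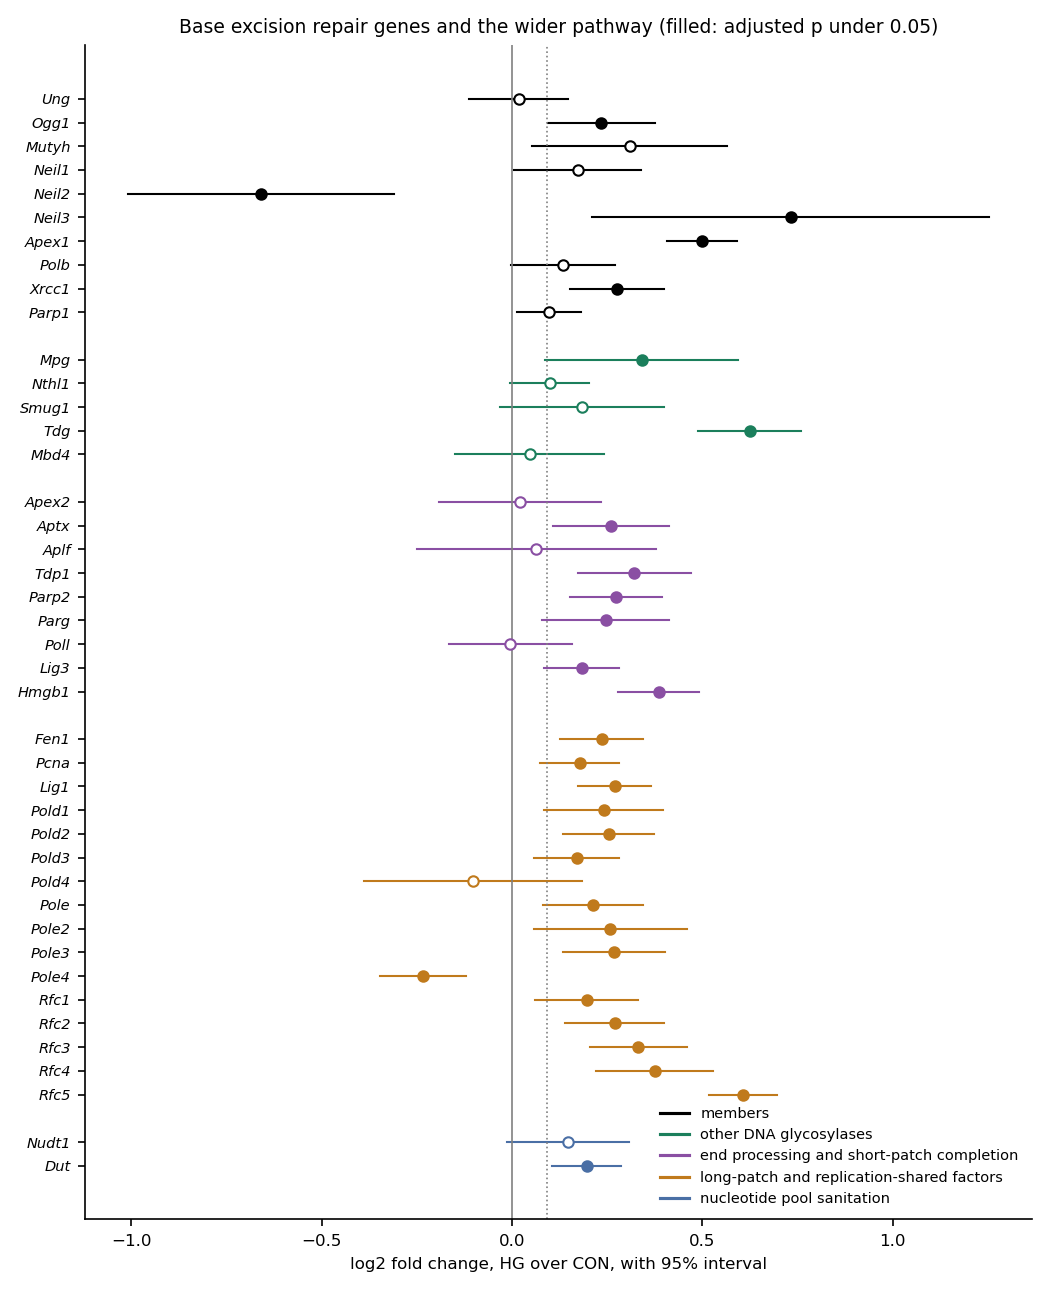
Log2 fold change, HG against CON, of the 10 genes and of the 33 further genes of the pathway by role, 1 of which is not drawn; filled points have an adjusted p under 0.05, bars are 95% confidence intervals, and the dotted line is the median of all genes tested, 0.093. Neil2 and Pole4 are the filled points below 0.

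The table's own KEGG annotation puts 37 genes in base excision repair, of which 35 were tested. All but 6 of the 37 are among the genes and lists above. With FPKM as deposited, 18 (51.4%) were called higher and 3 lower in HG, against 28.4% and 11.8% of all genes tested. These KEGG counts were not made with the other scalings. The 3 lower genes were Neil2, Pole4 and Parp4. Parp4 (NCBI Gene 361046), the poly(ADP-ribose) polymerase of vault particles, was at 18.8 to 21.1 FPKM in CON and 8.98 to 14.9 in HG. Its mean fell from 19.8 ± 0.859 to 12.0 ± 2.67 (log2 fold change -0.74, SE 0.126, adjusted p = 0.000671).

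The genes with a mitochondrion term in the table's annotation were Apex1, Ogg1, Mutyh, Ung and Parp1, of which 2 rose, Ogg1 with FPKM as deposited only among the 3 scalings. Of the 5 without the term (Neil1, Neil2, Neil3, Xrcc1 and Polb), 2 rose and 1 fell, against 28.4% of all genes called higher and 11.8% lower. Of these 2, Neil3 also rose with FPKM as deposited only among the 3 scalings.

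Markers of cell types were also called in both directions, and their part in the results above was not tested. Of all genes tested, 28.4% were called higher and 11.8% lower with FPKM as deposited. Those shares were 15.7% and 17.5% with median-of-ratios factors, and 18.0% and 15.9% with quantile normalization. In RNA of heart tissue, as the sample titles name it, fewer cells of a type and less RNA per cell cannot be told apart. Of 16 genes of dividing cells, all 16 rose with FPKM as deposited (median log2 fold change 0.35), 10 with median-of-ratios factors and 13 with quantile normalization. Their summed FPKM was 656 to 706 in CON and 858 to 949 in HG. The clearest were Ccnb1, Birc5 and Ccna2, genes of mitosis. Of 10 cardiomyocyte genes, 7 fell with FPKM as deposited, led by Myh6, Tnni3 and Ryr2, at a median log2 fold change of -0.33. With median-of-ratios factors 8 fell (median -0.42) and with quantile normalization 5 (median -0.16). The 10 genes summed to 26970 to 28234 in CON and 21465 to 24649 in HG. The tissue label was thus borne out, with cardiomyocyte RNA high in every library.

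Smooth muscle and pericyte genes had 3 higher and 1 lower of 6, with sums of 762 to 885 in CON and 976 to 1228 in HG. Of 8 fibroblast genes, 2 were called higher and 4 lower, summing to 1724 to 2010 in CON and 1556 to 1785 in HG. With median-of-ratios factors 6 fibroblast genes were called lower, and with quantile normalization 3. Endothelial genes had 2 higher of 7 (1 higher and 1 lower with median-of-ratios factors), at 266 to 288 and 274 to 300 FPKM. Macrophage genes had 3 higher and 2 lower of 8 (2 and 2 with either other scaling), at 34.6 to 43.9 and 37.3 to 51.0 FPKM. Red blood cell genes had 3 higher and 7 lower of 12 tested, at 10420 to 19732 and 8292 to 11637 FPKM. With median-of-ratios factors 8 red blood cell genes were called lower, and with quantile normalization 6. Of 7 liver genes 4 were called lower, but 2 without any single one of CON 2, CON 3, CON 4, HG 1, HG 2, HG 4 or HG 5, and 1 with a pseudocount of 1 or with voom. Their sum was 3.15 to 80.7 FPKM in CON, where CON 3 was highest and the next library was at 8.73, against 1.33 to 2.71 in HG. Of 7 lung and thymus genes none passed the filter, and their sums stayed at or below 0.177 FPKM. Without CON 3 the count of members called higher was 3, with 1 lower.

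**Figure D5:**
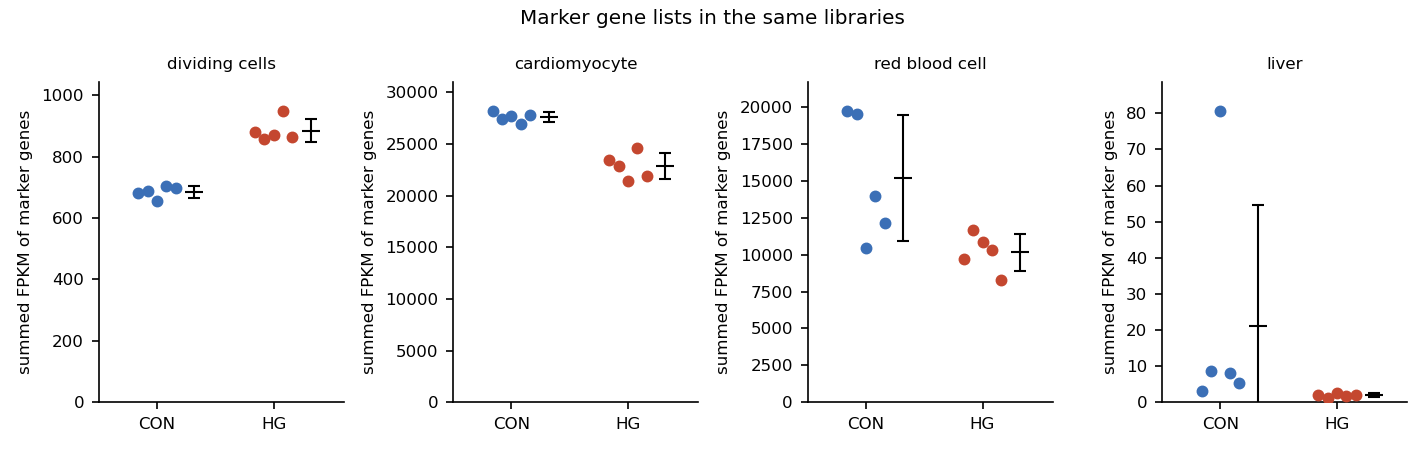
Summed FPKM of the marker lists in each library, with CON in blue and HG in red, the bar showing the mean ± SD of 5 libraries (the lower end of the CON bar for liver is drawn to 0). The genes of dividing cells sum to 656 to 706 in CON and 858 to 949 in HG, and those of cardiomyocytes to 26970 to 28234 and 21465 to 24649.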

How the data were processed

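The 10 stranded mRNA libraries of fetal heart were deposited by the authors as a single table of FPKM per gene and library; the submitters' processing notes name fastp, HISAT2, HTSeq, R 3.2.0 and the build mRatBN7.2, without roles. For their own comparison the authors used DESeq; their methods also speak of pooled RNA, while the deposited values differ between all libraries. Since the deposited FPKM values are not counts, log2(FPKM + 0.1) was tested with limma 3.58.1 in R 4.3.3 (eBayes with a trend), for the 14542 genes averaging 0.1 FPKM or more, all fitted together, with Benjamini-Hochberg adjustment. FPKM is relative, so a change in abundant transcripts shifts all others. Reads were recovered from the steps of low FPKM values, which were whole within 0.05 reads for 100% of genes; they give the depths and counting errors, which cover counting only. On these reads limma's voom called 4233 genes higher and 1727 lower. Scripts were tested on simulated data.

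All 10 genes are named; of the wider lists, called genes whose log2 fold change was 0.4 or more in size; of 3 lists of other repair pathways and 9 marker lists, counts and at most 3 genes; and KEGG genes outside the lists with an adjusted p under 0.05. The members and lists were chosen with earlier results of these data known. Promoters and gene overlaps come from RefSeq (GRCr8). All columns of sample values were used. The values of 1 gene of the wider lists are not reported here, while counts over the lists include it.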

Additional observations from a re-analysis of the deposited data

Results flagged for a closer look

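In 38 groups of 5 libraries (the 10 genes and the 9 summed marker lists, each in CON and in HG), the gap of the highest or lowest library to its neighbour was compared with Dixon's critical value, which chance exceeds in about 1 of 20 groups. None of the 20 groups of single genes stood out, and 3 groups of summed markers did. The summed genes of dividing cells reached 949 FPKM in HG 4, far from the other HG libraries. The summed smooth muscle and pericyte genes were at 762 FPKM in CON 5, below the other CON libraries. The summed liver genes reached 80.7 FPKM in CON 3, far from the other CON libraries. Without HG 4, 3 of the 10 genes were called higher and 1 lower, and without CON 3 the counts were also 3 and 1, Neil3 being the call lost in both. Without CON 5 the counts were 5 and 1, the added call being Mutyh.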

How the results depend on the processing

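Over 20 alternatives, Apex1, Xrcc1 and Neil2 were called in all 20, Ogg1 in 18, Neil3 in 12, Mutyh in 5, Parp1 in 1, and Ung, Neil1 and Polb in none; the adjusted p ranged from 1.81e-06 to 0.000181 for Apex1, 0.00099 to 0.0152 for Xrcc1 and 0.00223 to 0.0179 for Neil2. With median-of-ratios factors and quantile normalization, in that order, the log2 fold change was 0.15 and 0.14 for Ogg1 and 0.65 and 0.65 for Neil3, neither called, and -0.072 and -0.045 for Ung, a reversed sign; the genes called higher numbered 2 and 2 of 10, and 11 and 14 of the 33 further genes. Both scalings lower the median of all genes, and in that order they called 15.7% and 18.0% of all genes higher. Mutyh was called, at 0.31 each, with a filter at a mean of 1 FPKM (adjusted p = 0.0459) and with voom (0.0403); the cause was not tested.

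Leaving out 1 library at a time, the log2 fold change ranged from 0.25 to 0.40 for Mutyh, -0.021 to 0.045 for Ung (below 0 without CON 2, HG 1 or HG 4), 0.53 to 0.91 for Neil3 and 0.076 to 0.12 for Parp1. The members called higher numbered 3 to 5, and the further genes 20 to 23. The difference in reads per library, HG minus CON, ranged from -463562 to 145680 (above 0 only without HG 5), and the difference in hemoglobin share from -1.25 to -0.77 percentage points.

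Replicate numbers did not pair the libraries: deviations of same-numbered libraries correlated at -0.126 to 0.108, and no CON library correlated best with its own number. With the number as a replicate block, 3566 genes were called higher and 1530 lower, 4 and 1 of the 10 genes and 23 and 1 of the 33, and no call of the 10 genes changed (Apex1 log2 fold change 0.50, adjusted p = 0.000181; Mutyh 0.0527). Counting error was 14.5% of the CON mean for Neil3, 9.45% for Neil2 and 9.28% for Neil1.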

Other observations

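Genes of other DNA repair pathways were called in part as well, beside 28.4% of all genes called higher and 11.8% lower. Of 8 mismatch repair genes, 5 rose in HG (median log2 fold change 0.21), with Pms1 at 3.98 ± 0.163 and 5.37 ± 0.464 FPKM, Msh6 at 18.5 ± 0.624 and 21.3 ± 0.861, and Exo1 at 3.86 ± 0.137 and 4.69 ± 0.177 in CON and HG. The list had 3 higher and 1 lower with median-of-ratios factors, and 4 and 1 with quantile normalization. Of 19 nucleotide excision repair genes, 7 rose with FPKM as deposited (median 0.16), with the damage sensor Ddb1 at 117 ± 3.64 and 135 ± 4.29 FPKM, Xpc at 4.74 ± 0.622 and 6.26 ± 0.447, and Rad23b at 93.8 ± 3.86 and 105 ± 4.87. That list had 3 higher and 1 lower with median-of-ratios factors, 4 and 1 with quantile normalization, and 4 higher without HG 3. Of 9 genes that maintain mitochondrial DNA, 2 rose and 1 fell (median -0.023), with none higher under either other scaling and 1 higher without CON 3 or without HG 4. The single-strand binding protein Ssbp1 rose from 20.2 ± 1.36 to 23.9 ± 2.18 FPKM and the primase-polymerase Primpol from 2.68 ± 0.651 to 3.69 ± 0.461, while the mitochondrial nuclease Endog fell from 30.4 ± 4.96 to 21.5 ± 3.33.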
